A study of Mus musculus with 30 samples.

Results

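The miR-99, miR-100 and miR-125 family was followed across small RNA libraries of mouse prefrontal cortex, which the labels give as cortex. Its members were chosen by sequence. They are the 6 hairpins Mir99a, Mir99b, Mir100, Mir125a, Mir125b-1 and Mir125b-2 of the 2202 miRNA hairpins in the GENCODE annotation, and a read was counted only when the whole read matched a hairpin exactly in the sense direction. A feature was the set of hairpin arms that such a read matched, so that a read shared by several hairpins was kept apart from reads that belong to a single hairpin. The family made up 14 of 3948 features, and 0 features mixed a member with a hairpin outside the family.

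All animals were 6 months old, of both sexes, on a C57BL/6J background. AD mice were hemizygous 5xFAD animals, a transgenic model of Alzheimer's disease, and WT mice were their littermates. PANDORA-seq (8 WT and 8 AD libraries) treated the gel-cut small RNA with T4PNK, which repairs RNA ends, and with AlkB, which removes methyl groups from bases, before library construction. The sources differ on which enzyme came first. Traditional-seq (7 WT and 7 AD libraries) skipped both enzymes. The labels number the libraries without naming animals or giving the sex of each, and as a model the 5xFAD line overexpresses its transgenes from a neuronal promoter.

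A miRNA is cut from its hairpin by Drosha and Dicer, and either the 5′ arm (5p) or the 3′ arm (3p) is kept in an Argonaute protein. The seed, bases 2 to 8 of the mature strand, directs pairing with target messenger RNAs. miR-125 is the vertebrate relative of the worm timing miRNA lin-4, is abundant in neurons and glia, and has been studied in neuronal differentiation and tau phosphorylation. miR-99 and miR-100 are relatives of miR-10 and are known for targeting mTOR signalling.

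The mature sequences are shown because the family consists of 2 seed groups on the 5p arm, and because the ends of these strands are measured later. They are RefSeq sequences on GRCm38.p6, 5′ to 3′, with the seed in capitals.
miR-99a-5p: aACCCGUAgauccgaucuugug
miR-99b-5p: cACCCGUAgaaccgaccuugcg
miR-100-5p: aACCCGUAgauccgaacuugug
miR-125a-5p: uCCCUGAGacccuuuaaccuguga
miR-125b-5p: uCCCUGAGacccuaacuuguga
miR-99a-3p: cAAGCUCGuuucuaugggucu
miR-99b-3p: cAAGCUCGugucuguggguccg
miR-100-3p: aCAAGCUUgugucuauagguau
miR-125a-3p: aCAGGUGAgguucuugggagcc
miR-125b-1-3p: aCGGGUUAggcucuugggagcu
miR-125b-2-3p: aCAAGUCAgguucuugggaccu

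miR-99a-5p and miR-100-5p differ by the single substitution U16A, counted from 1 at the 5′ end of miR-99a-5p. miR-99b-5p differs from miR-99a-5p by A1C, U11A, U16C and U21C. miR-125a-5p and miR-125b-5p share their first 13 bases, and both Mir125b hairpins give the same miR-125b-5p. Among mature mouse miRNAs in the RefSeq table, the miR-125 seed is also held by miR-351-5p, miR-6367 and miR-6394, and the miR-99 seed by no miRNA outside the family. The 3p strands share a seed only between miR-99a-3p and miR-99b-3p.

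The hairpins lie in 3 clusters, each with a let-7 hairpin between a miR-99 or miR-100 hairpin and a miR-125 hairpin. All coordinates are GRCm38, forward strand. Mir99a (chr16:77598936-77599000) and Mir125b-2 (chr16:77646273-77646343) lie in introns of the non-coding gene Mir99ahg, 47272 bases apart, with Mirlet7c-1 between them at 656 bases from Mir99a. Mir100 (chr9:41531425-41531504) and Mir125b-1 (chr9:41581926-41582002) lie in introns of the non-coding gene 3110039I08Rik, 50421 bases apart, with Mirlet7a-2 at 5211 bases from Mir100. Mir125b-1 also falls in an exon of the sense-intronic transcript Gm28119, and Mir100 lies opposite an exon of the antisense transcript Gm48742. Mir99b (chr17:17830188-17830257, intron) and Mir125a (chr17:17830812-17830879, exon) lie in the protein-coding gene Spaca6, 554 bases apart, with Mirlet7e at 94 bases from Mir99b. Of 7280326 family reads, 2337136 also matched another transcript, nearly all of them the overlapping transcripts Gm28119 (1387391 reads) and Spaca6 (949742 reads).

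PANDORA-seq libraries held 54926347 to 105876141 reads and traditional-seq libraries 9370669 to 17053412. Exact miRNA reads were 1.51% to 5.54% of a PANDORA-seq library and 35.9% to 50.3% of a traditional-seq library, so each library held between 829202 and 7090394 miRNA reads. The family took 6.78% ± 1.49 (SD, n = 16 libraries) of miRNA reads in PANDORA-seq and 6.81% ± 2.66 (SD, n = 14) in traditional-seq, with ranges of 4.05% to 9.18% and 2.74% to 12.2%. Hairpins that mark neurons (13 of 13 detected) summed to 67854 to 202048 reads per 1000000 miRNA reads of a library (RPM below) in PANDORA-seq and 247894 to 600181 in traditional-seq. Markers of microglia and leukocytes summed to at most 127, over the 3 of 4 listed genes found by name in the annotation. Mir146 was not counted among them. Markers of muscle, heart and liver, which cortex should lack, summed to 825 to 23976, the highest in an AD traditional-seq library. The libraries that stood apart were AD PANDORA-seq replicate 1, with the highest PANDORA-seq miRNA share, WT PANDORA-seq replicate 6, with the lowest PANDORA-seq family share, and WT traditional-seq replicate 2, with few miR-99a reads. Values without them are given for levels, fits and shares of the family where they change a result.

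Levels are given as RPM, reads per 1000000 miRNA reads of a library. The mature strands are of nearly equal length, so no length scaling was applied. In traditional-seq, miR-99a-5p was the most abundant member and the seventh of all features by mean level. Its level was 1087 at the lowest, 40298 at the median and 103313 at the highest of 14 libraries. The lowest value belonged to WT replicate 2, and the next lowest traditional-seq library stood at 13052. In PANDORA-seq the same strand was at 2147, 4653 and 10131, below every traditional-seq library except WT replicate 2.

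miR-100-5p, which differs from miR-99a-5p by a single base, was the second member of traditional-seq, between 3129.9 and 21227. In PANDORA-seq it was the lowest of the main 5p strands, between 995 and 7737. miR-99b-5p overlapped between protocols, at 2669 to 9719 in traditional-seq and 5204 to 10984 in PANDORA-seq, and it was rank 26 among features in each. Of these 3 strands, only miR-99b-5p had a higher median in PANDORA-seq on this scale (7435 against 6054).

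miR-125b-5p was at 9788, 29349 and 43248 in PANDORA-seq (lowest, median and highest of 16 libraries) and at 2672, 3632 and 5829.6 in traditional-seq. The protocols did not overlap. Outside the family, let-7c-5p did not overlap either (37299 to 243585 in PANDORA-seq and 5260 to 13254 in traditional-seq), and miR-10a-5p did (89.6 to 769 and 91.7 to 1824). The share of all features without overlap in level is not given here. miR-125a-5p was at 4693, 17926 and 36726 in PANDORA-seq and at 1444, 3189 and 5193 in traditional-seq. Here the ranges overlapped through WT PANDORA-seq replicate 6 alone. Without it the lowest PANDORA-seq library was at 11192.

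The order of the family by mean level differed between the protocols. In traditional-seq, miR-99a-5p stood above miR-100-5p in 13 of 14 libraries (ratio of means 4.99), and miR-100-5p above miR-99b-5p in 13 of 14 (1.55). miR-99b-5p stood above miR-125b-5p in 11 of 14 libraries (1.47) and miR-125b-5p above miR-125a-5p in 10 of 14 (1.22). In PANDORA-seq, miR-125b-5p stood above miR-125a-5p in 13 of 16 libraries (1.53), miR-125a-5p above miR-99b-5p in 15 of 16 (2.50), miR-99b-5p above miR-99a-5p in 13 of 16 (1.52) and miR-99a-5p above miR-100-5p in 16 of 16 (1.74). Only this last pair kept its order in every library of a protocol, and every other pair of neighbours had at least 1 library in the opposite order, so their order did not hold beyond the spread of the libraries.

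**Figure D1:**
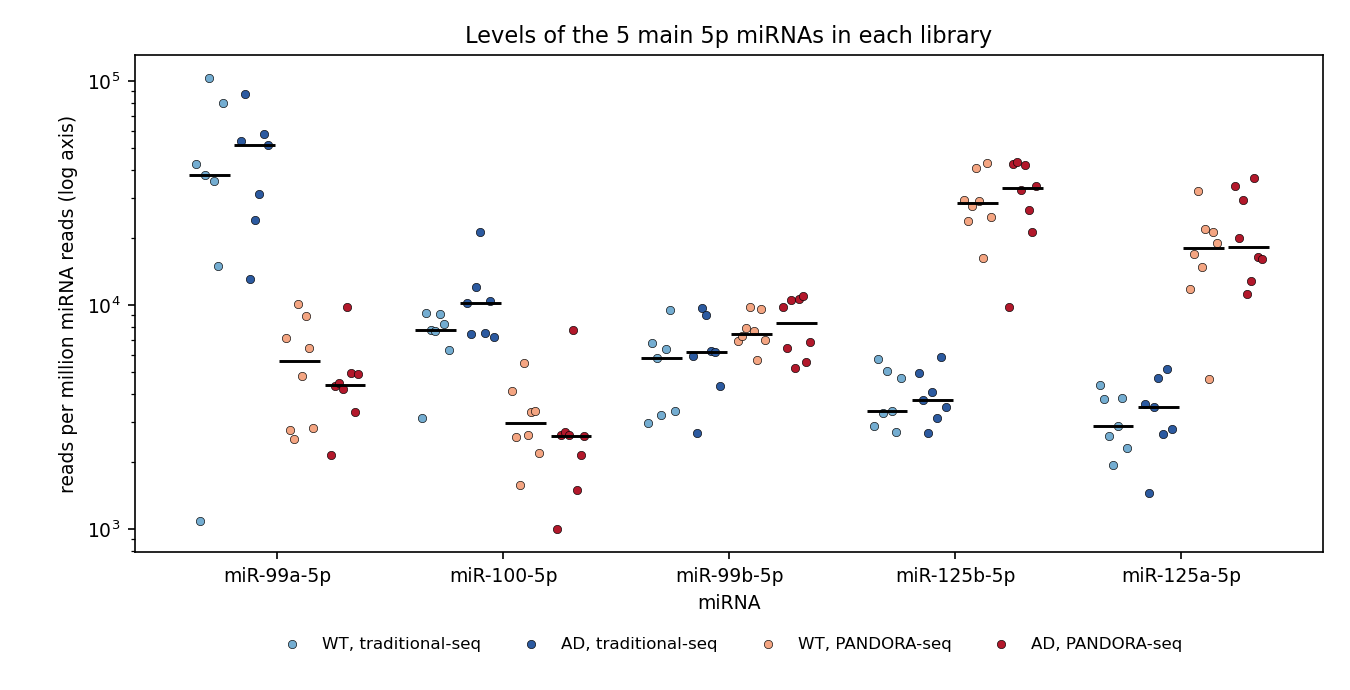
Level of the 5 main 5p strands in RPM (log axis), 1 point per library, for WT and AD mice in traditional-seq and PANDORA-seq, with the group medians marked. miR-125b-5p reaches 9788 to 43248 in PANDORA-seq against 2672 to 5829.6 in traditional-seq, and miR-99a-5p runs the other way except for 1 WT traditional-seq library at 1087.

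Ratios within a library do not depend on scaling. The ratio of miR-125b-5p to miR-99a-5p had a median of 6.53 in PANDORA-seq (1.82 to 10.9, n = 16) and of 0.0929 in traditional-seq (0.0429 to 5.27, n = 14), where WT replicate 2 gave the highest value and all others lay at or under 0.205. The ratio of miR-125b-5p to miR-100-5p was 4.85 to 17.7 in PANDORA-seq and 0.194 to 0.923 in traditional-seq, without overlap. For the chromosome 17 neighbours, the ratio of miR-125a-5p to miR-99b-5p was 0.826 to 4.09 and 0.361 to 1.47. The miR-125 strand of each pair was therefore the higher in 16, 16 and 15 of 16 PANDORA-seq libraries and in 1, 0 and 1 of 14 traditional-seq libraries.

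The 3p strands were much lower. miR-125b-1-3p was at 326 to 897 in PANDORA-seq and 75.7 to 147 in traditional-seq, and miR-125a-3p at 108 to 443 and 3.51 to 18.04, both without overlap of the protocols. Outside the family, let-7e-3p did not overlap either (35.1 to 90.8 and 6.35 to 15.7), and let-7c-1-3p did (9.04 to 31.6 and 3.84 to 12.2). As for the 5p strands, the share of all features without overlap is not given. The traditional-seq level of miR-125a-3p rests on few reads, with 492 of its leading read (74.7%) over all 14 libraries. miR-99b-3p (222 to 513 and 62.3 to 309) and miR-125b-2-3p (23.5 to 80.3 and 31.9 to 99.6) overlapped. miR-99a-3p had 162 reads over all PANDORA-seq libraries and 46 over all traditional-seq libraries, and miR-100-3p had 5 and 55. Short reads shared by miR-99a-5p and miR-100-5p numbered 109 and 7.

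The comparison of PANDORA-seq with traditional-seq asks what is seen of each miRNA with and without the enzyme treatment. The protocols also differed in depth, and traditional-seq libraries held 0% of reads of 43 to 45 nt. The part of the enzymes cannot be told apart from other differences between the 2 sets of libraries. Within the family, miR-99a-5p and miR-100-5p were lower in PANDORA-seq and miR-125a-3p was higher, while miR-125a-5p and miR-125b-5p were near the median feature with TMM scaling and above or below it under other settings. In edgeR's quasi-likelihood test with TMM scaling and genotype as a covariate, 796 of 988 features tested (80.6%) had an adjusted p under 0.05 with a change of more than 2-fold, which is what a call means here. Calls were higher in PANDORA-seq for 536 features (54.3%) and lower for 260 (26.3%). Of the 14 family features, 13 were tested, 6 were called higher and 5 lower, a share near the background. miR-100-3p was not tested. The higher calls of miR-99a-3p and of the short reads shared by miR-99a-5p and miR-100-5p rest on the few reads given above. The shared reads were so few in traditional-seq that they could pass the filter only through PANDORA-seq. The direction of their call was thus set by the filter. Neither feature had enough reads to be tested between genotypes within a protocol. The median log2 fold change of all features was 1.51, so member values are also given relative to it. Under scaling by all reads of the library, with 990 features past the filter, the median was -2.17, and the split of the calls moved from 67.3% higher to 27.4% higher.

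miR-99a-5p fell by 4.54 on the log2 scale (SE 0.376, edgeR adjusted p = 1.71e-13), and by 4.65 without WT traditional-seq replicate 2 (SE 0.294). Relative to the median feature its change was -6.04, and between -7.21 and -4.88 over the 12 settings tried. miR-100-5p fell by 2.97 (SE 0.209, adjusted p = 2.24e-15), with -5.64 to -3.34 relative to the median feature. They were the 44th and the 124th lowest of the 988 changes. miR-99b-5p had a log2 fold change of -0.85 (SE 0.202, adjusted p = 0.000221), short of a fold of 2, and -3.46 to -1.24 relative to the median feature. It was called lower with scaling by all reads (-3.43), when each arm took all reads that matched it (-1.89) and when reads with added 3′ bases were counted (-1.30). All 3 strands of the ACCCGUA seed were below the median feature under every setting and in 30 fits with a library removed in turn.

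miR-125b-5p had a log2 fold change of 1.55 (SE 0.169, adjusted p = 1.59e-10) and miR-125a-5p of 1.33 (SE 0.274, adjusted p = 3.09e-05). Both were called higher, but relative to the median feature they stood at 0.04 and -0.18, with ranges of -0.63 to 1.11 and -1.25 to 0.97 over the settings. They stood 1.09 and 0.87 above it with scaling by all reads, 1.01 and 0.75 above it with a stricter filter (10 reads or more in each library of any group), and 1.11 and 0.97 above it with reads of 18 to 26 nt. With a loose filter (10 reads or more in all) they were at -0.63 and -0.91, below the median feature, and miR-125a-5p was at -1.25 when each arm took all reads that matched it. With scaling by all reads of the library their direction turned, to -1.09 and -1.31. The call of miR-125a-5p was lost when each arm took all reads that matched it (0.32), and that of miR-125b-5p when reads with added 3′ bases were counted (0.99). The call of miR-125a-5p was also lost, at 0.76 to 0.89, when any of 12 PANDORA-seq libraries was left out (WT replicates 1, 2, 4, 5 and 7 and AD replicates 2 to 8). In those fits the median of all features was under 1.1, miR-125b-1-3p (0.69 to 0.75) and miR-99a-3p (0.86 to 0.99) lost their calls as well, and miR-99b-5p (-1.37 to -1.28) and miR-99b-3p (-1.13 to -1.06) gained one.

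Among the 3p strands, miR-125a-3p rose by 3.40 (SE 0.315, adjusted p = 3.09e-12) and was the only 3p strand above the median feature under all 12 settings, by 0.84 to 2.97. It kept a positive change with scaling by all reads of the library (0.79), without passing a fold of 2. miR-125b-2-3p fell by 1.52 (SE 0.213, adjusted p = 3.98e-08). miR-125b-1-3p, its counterpart from the other locus, had a change of 1.19 (SE 0.177, adjusted p = 1.26e-07), which turned to -1.39 with scaling by all reads of the library and to -0.16 when reads with added 3′ bases were counted. Its call was also lost when each arm took all reads that matched it (0.18). The ratio of miR-125b-1-3p to miR-125b-2-3p, free of scaling, was 6.97 to 20.1 in PANDORA-seq and 1.04 to 3.29 in traditional-seq, without overlap. miR-99a-3p was called higher (1.41, adjusted p = 0.000504, but -1.20 with scaling by all reads), and miR-99b-3p was not called (-0.66, adjusted p = 0.00596). When each arm took all matching reads and when reads with added bases were counted, miR-99a-3p stood at 0.35 and 0.38 without a call. miR-99b-3p was called lower under both, at -1.65 and -1.03, and with scaling by all reads, at -3.18. In RPM, as given above, its range lay higher in PANDORA-seq than in traditional-seq, so its direction depended on the scaling.

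**Figure D2:**
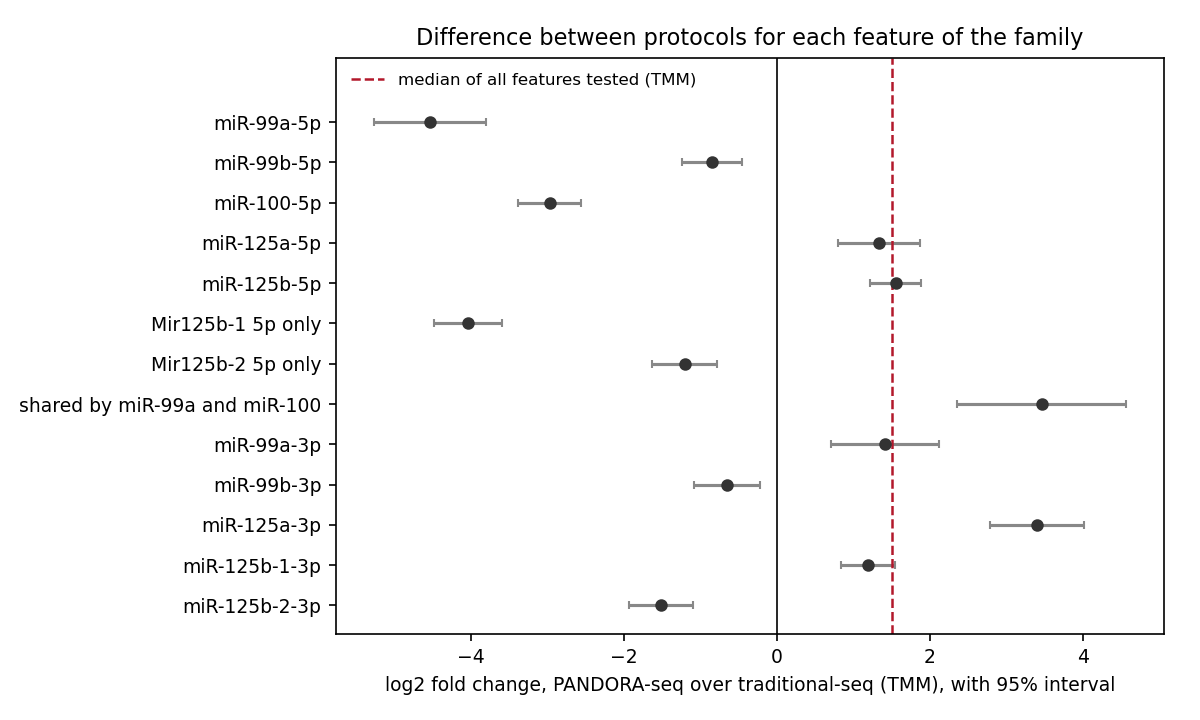
Log2 fold change of PANDORA-seq against traditional-seq for each family feature in the edgeR fit, with bars for the 95% interval and a line at the median of all 988 features (1.51). miR-99a-5p (-4.54) and miR-100-5p (-2.97) lie far below the line, miR-125a-5p (1.33) and miR-125b-5p (1.55) beside it and miR-125a-3p (3.40) above it.

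The cell type marker lists were counted in the same fit, in which 80.6% of all features were called. The microglia and leukocyte list covered 3 of 4 genes, those found by name, so Mir146 was not counted. The erythroid list also covered only the 3 of 4 genes found by name, and the gene left out is not named here. Of 28 neuron marker features, 9 were called higher and 13 lower, a total near that share, with a median log2 fold change of -0.89 beside 1.51 over all features. Of 6 vascular features 0 were called higher and 3 lower (median -1.26), of 5 oligodendrocyte features 0 and 2 (-0.86), of 4 microglia and leukocyte features 0 and 2 (-1.46), of 5 erythroid features 2 and 1 (0.78), and of 4 features of muscle, heart and liver 1 and 1 (0.14). With scaling by all reads of the library, where 85.3% of all features were called, 23.3% higher and 61.9% lower, 3 of 30 neuron features were called higher and 26 lower. The medians of the 6 marker lists were then between -4.77 and -1.91, beside -2.17 over all features. The part of these markers in the family's values was not tested.

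The 5p strands of the let-7 hairpins between the members were called higher in PANDORA-seq with TMM scaling, and had negative changes with scaling by all reads of the library, as miR-125a-5p and miR-125b-5p did. The let-7c-5p and let-7a-5p reads are shared with another hairpin, so they do not give the change of the cluster hairpin alone. let-7c-5p, from Mirlet7c-1 and Mirlet7c-2 together, had a log2 fold change of 1.88 (SE 0.286), with a median of 70200 RPM in PANDORA-seq and 9526 in traditional-seq. For let-7e-5p, between Mir99b and Mir125a, it was 1.66 (SE 0.26), and for let-7a-5p, from Mirlet7a-1 and Mirlet7a-2, 1.15 (SE 0.258). Relative to the median feature these 3 let-7 strands stood at 0.37, 0.15 and -0.36 with TMM scaling, and at 1.43, 1.21 and 0.79 with scaling by all reads. In each cluster the let-7 5p strand and the miR-125 strand lay above the miR-99 or miR-100 strand in change. The miR-125b-5p reads, shared by Mir125b-1 and Mir125b-2, stand for both of their clusters and do not give the change of either hairpin alone. With TMM scaling, 5p reads specific to Mir125b-1 changed by -4.04, below miR-100-5p (-2.97). Those specific to Mir125b-2 changed by -1.21, above miR-99a-5p (-4.54). Such reads run past the mature strand and do not measure either locus. The let-7 3p strands belong to single let-7 hairpins, and none of these strands was called. let-7c-1-3p had a change of 0.15 (SE 0.212, edgeR adjusted p = 0.486) and let-7e-3p of 0.90 (SE 0.188), short of a fold of 2. let-7a-2-3p was not tested, with 22 reads in PANDORA-seq and 43 in traditional-seq. Of 29 let-7 features tested, 16 were called higher and 7 lower, close to the 54.3% and 26.3% of all features, with a median log2 fold change of 1.15. With scaling by all reads, 5 of 30 were called higher and 18 lower, beside 23.3% and 61.9% of all features, with a median of -1.45. miR-351-5p, which has the miR-125 seed, had a change of 1.99 (SE 0.231) with TMM scaling and of -0.65 with scaling by all reads. miR-10a-5p, a relative of the miR-99 strands, fell by 2.03 (SE 0.352), and miR-10b-5p was not called (-0.88, SE 0.505). With scaling by all reads both were called lower, at -4.75 and -3.80. Both miR-10 strands were below the median feature under each scaling.

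The comparison of AD with WT mice asks whether the transgenes alter the small RNAs of the cortex. No family feature was called in either protocol. In bulk tissue, fewer cells of a type and less of an RNA in each cell cannot be told apart. In traditional-seq, edgeR called 0 of 548 features (0%). An unadjusted p under 0.05 was reached by 8 features, by 9 in the likelihood ratio test and by 11 in DESeq2, which called 0 as well. In PANDORA-seq, 1 of 741 features (0.135%) was called, none of them a member, with 92 at an unadjusted p under 0.05. Of the 14 family features 11 were tested in each protocol, and miR-99a-3p, miR-100-3p and the reads shared by miR-99a-5p and miR-100-5p were too few. Their median log2 fold change was 0.08 in traditional-seq, beside 0.02 over all features, and 0.07 in PANDORA-seq, beside 0.05.

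In traditional-seq, miR-99a-5p was at 1087, 38220.2 and 103313 in WT mice (lowest, median and highest of 7 libraries) and at 13052, 51884 and 87628 in AD mice. The AD range lay within the WT range. Its log2 fold change was 0.03 (SE 0.634, 95% interval -1.21 to 1.28), and -0.18 (SE 0.43) without WT replicate 2. This interval is the widest in the family and includes a fold of 2 in either direction. miR-100-5p was at 3129.9, 7727 and 9227 in WT mice and at 7188, 10178 and 21227 in AD mice. The groups overlapped between 7188 and 9227, and the log2 fold change was 0.65 (SE 0.268, 95% interval 0.13 to 1.18, edgeR adjusted p = 0.998). It was the only family feature of traditional-seq with an unadjusted p under 0.05.

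The other strands of traditional-seq overlapped almost fully. miR-99b-5p was at 2971, 5799.5 and 9542 in WT mice and 2669, 6188 and 9719 in AD mice (log2 fold change 0.25, 95% interval -0.39 to 0.89). miR-125a-5p was at 1928, 2873 and 4371 in WT mice and 1444, 3505 and 5193 in AD mice (0.08, -0.55 to 0.71). For miR-125b-5p the values were 2698, 3362 and 5729 in WT mice and 2672, 3759 and 5829.6 in AD mice (0.08, -0.31 to 0.47). The 3p strands tested had changes between -0.25 (miR-125a-3p) and 0.03 (miR-99b-3p), and every interval included 0.

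In PANDORA-seq, miR-125a-5p was at 4693, 17926 and 32219 in WT mice (n = 8) and at 11192, 18124 and 36726 in AD mice (n = 8). The medians were nearly equal and the lowest library was a WT library. The log2 fold change was 0.69 (SE 0.411, 95% interval -0.12 to 1.49, edgeR adjusted p = 0.537), 0.31 without AD replicate 1 and 0.55 without WT replicate 6. miR-125a-3p, the other arm of that hairpin, was at 108, 177 and 307 in WT mice and 139, 238 and 443 in AD mice. Its log2 fold change of 0.86 (SE 0.385, 95% interval 0.10 to 1.61, adjusted p = 0.371) was the only one of the family with an unadjusted p under 0.05, and it was 0.45 without AD replicate 1. miR-99b-5p, from the same cluster, was at 5684, 7435 and 9795 in WT mice and 5204, 8304 and 10984 in AD mice, with a change of 0.42 (95% interval -0.09 to 0.93), or 0.16 without AD replicate 1.

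miR-125b-5p in PANDORA-seq was at 16226, 28396 and 43161 in WT mice and 9788, 33309.5 and 43248 in AD mice (log2 fold change 0.28, 95% interval -0.13 to 0.69). miR-99a-5p was at 2528, 5642 and 10131 in WT mice and 2147, 4414 and 9778 in AD mice (-0.08, -0.66 to 0.49). miR-100-5p was at 1567, 2978 and 5519 in WT mice and 995, 2607.5 and 7737 in AD mice (-0.01, -0.55 to 0.53). In each of these the ranges of the genotypes covered each other for the most part. miR-99a-5p and miR-100-5p change sign under some settings, as given with the processing choices.

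Reads of 43 to 45 nt, of any RNA, made up 11.2% to 21.5% of WT PANDORA-seq libraries and 2.13% to 10.7% of AD PANDORA-seq libraries, without overlap, and 0% of traditional-seq libraries. Family reads of that length numbered 9 in all of PANDORA-seq. The part of this difference in the family's values was not tested. The neuron markers summed to 128035 to 202048 RPM in WT and 67854 to 164021 in AD PANDORA-seq libraries, and 0 features of any marker list were called between genotypes by edgeR, with the smallest adjusted p at 0.207. Mir146 was not in the lists as counted.

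**Figure D3:**
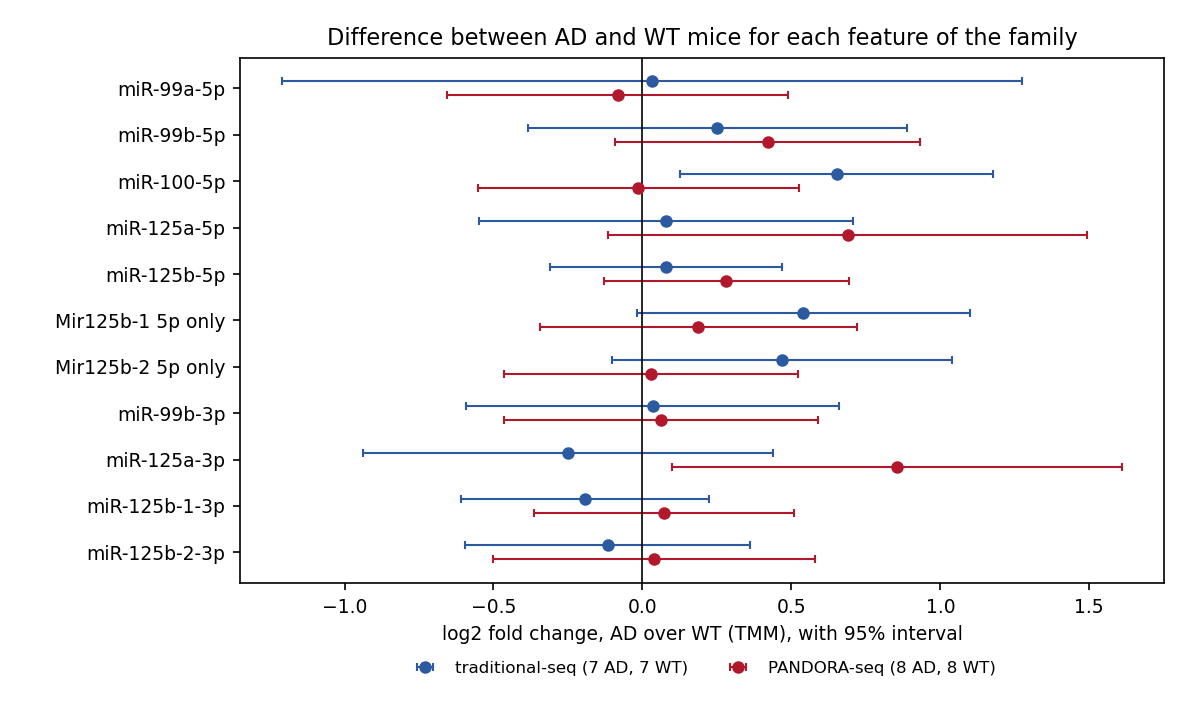
Log2 fold change of AD against WT mice for the family features tested, in traditional-seq and PANDORA-seq, with bars for the 95% interval. The largest values, 0.65 for miR-100-5p in traditional-seq and 0.86 for miR-125a-3p in PANDORA-seq, have intervals above 0 but adjusted p of 0.998 and 0.371.

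The genotype effect was also compared between protocols by an interaction term. edgeR called 0 of 988 features (0%), with 58 at an unadjusted p under 0.05. miR-125a-3p had the largest difference of the family, 1.17 (SE 0.535, adjusted p = 0.678). miR-100-5p had a difference of -0.55 (SE 0.39, adjusted p = 0.936). Of the let-7 neighbours, let-7c-5p had a genotype log2 fold change of 1.17 in PANDORA-seq (SE 0.451, adjusted p = 0.348) and 0.12 in traditional-seq (SE 0.213). Its highest library was AD PANDORA-seq replicate 1, at 243585 RPM, and a fit without that library is not given. The PANDORA-seq medians were 57903 RPM in WT and 84367 in AD mice, with overlapping ranges (37299 to 122405 and 56872 to 243585).

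Strand choice was measured as the share of 5p reads among the arm reads of a hairpin, in percent. All 6 hairpins gave mostly 5p reads. Mean shares in traditional-seq were 99.99% for Mir99a and for Mir100, 99.7% for Mir125a, 98.6% for Mir125b-2, 97.5% for Mir125b-1 and 96.6% for Mir99b. Reads of miR-125b-5p were counted for both Mir125b hairpins. In PANDORA-seq Mir125a fell to 98.7% ± 0.631 (SD, n = 16) from 99.7% ± 0.126 (SD, n = 14), Mir99a to 99.9% from 99.99%, and Mir125b-2 rose to 99.8% from 98.6% (permutation tests with 100000 resamples, adjusted p = 2.05e-05 for each). Shares of Mir99b, Mir100 and Mir125b-1 did not pass the test (permutation tests, adjusted p = 0.219, 0.142 and 0.170). Without WT PANDORA-seq replicate 6, left out after the data were seen, Mir125b-1 passed it, at 98.1% ± 0.486 (SD, n = 15) against 97.5% (permutation test, adjusted p = 0.0133), while Mir125a, at 98.8%, Mir125b-2, at 99.8%, and Mir99a still passed it and Mir99b and Mir100 did not. Of 119 hairpins tested, 96 differed (80.7%), 43 higher (36.1%) and 53 lower (44.5%), so 3 of 6 members is no higher a share, nor are the 4 of 6 without that library, where 96 hairpins differed as well. Between genotypes, 0 of 188 hairpins were called in traditional-seq and 0 of 217 in PANDORA-seq by exact permutation tests, with 6 and 9 at an unadjusted p under 0.05.

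Reads of 18 to 26 nt were shorter in PANDORA-seq for the 7 family features with at least 200 reads in every library. Their mean length was 19.4 nt against 20.8 nt for miR-125b-5p, 19.9 against 21.3 for miR-125b-1-3p, 21.2 against 22.2 for miR-125a-5p, 20.5 against 21.5 for miR-100-5p, 20.6 against 21.4 for miR-99b-5p, 20.2 against 21.04 for miR-99a-5p and 21.7 against 22.02 for miR-99b-3p. Differences ran from -1.42 to -0.28 nt, and each had the smallest p that 100000 resamples can give (1e-05, permutation test, adjusted p = 1.06e-05). Groups of libraries did not overlap for any of the 5 main 5p strands. Outside the family, let-7a-5p did not overlap either (20.8 to 20.9 nt in PANDORA-seq and 21.8 to 21.9 nt in traditional-seq), and miR-668-3p did. The share of all features without overlap is not given here. Among the features with too few reads to test, the reads specific to the 5p arm of Mir125b-1 went the other way, at 23.3 nt in PANDORA-seq and 22.9 nt in traditional-seq, with as few as 12 reads behind a library. The shift was general, since 103 of 105 features were called (98.1%), 100 of them lower (95.2%) and 3 higher (2.86%), with a median difference of -0.826 nt. No feature was called between genotypes by exact permutation tests (0 of 170 in traditional-seq and 0 of 132 in PANDORA-seq, with 1 and 13 at an unadjusted p under 0.05).

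For the 5p strands the protocols differed mainly at the 3′ end. Reads of miR-99a-5p, miR-99b-5p, miR-100-5p and miR-125a-5p began at the RefSeq 5′ base in 98.8% to 99.8% of cases, the means of each protocol, as did 93.2% of traditional-seq reads of miR-125b-5p and 98.3% of its PANDORA-seq reads. Among the 3p strands, 89.1% of miR-125b-1-3p reads began at the RefSeq base in PANDORA-seq against 95.4% in traditional-seq. For miR-125b-2-3p these shares were 76.6% and 88.7%, so 5′ starts varied there too. The most frequent 5p reads are shown as DNA because they differ by the last base.
miR-99a-5p in traditional-seq: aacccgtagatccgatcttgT
miR-99a-5p in PANDORA-seq: aacccgtagatccgatcttg
miR-125b-5p in traditional-seq: tccctgagaccctaacttgT
miR-125b-5p in PANDORA-seq: tccctgagaccctaacttg
miR-125a-5p in traditional-seq: tccctgagaccctttaacctgT
miR-125a-5p in PANDORA-seq: tccctgagaccctttaacctg
The capital marks the base present in the leading read of traditional-seq and missing from that of PANDORA-seq.

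For miR-99a-5p the 21-nt read made up 95.8% of traditional-seq reads and led in 14 of 14 libraries, whereas the 20-nt read made up 74.4% of PANDORA-seq reads and led in 16 of 16. miR-125b-5p ends were more varied, with the 20-nt read at 37.2% in traditional-seq (leading in 10 of 14 libraries) and the 19-nt read at 32.2% in PANDORA-seq (11 of 16). For miR-125a-5p the 22-nt read held 70.8% in traditional-seq and the 21-nt read 65.2% in PANDORA-seq. miR-99b-5p was the exception, led by the 21-nt read in both protocols (49.8% and 44.8%). Family reads of 15 to 17 nt made up 2.99% of family reads in PANDORA-seq and 0.0263% in traditional-seq. Reads of 27 to 45 nt were also the larger share in PANDORA-seq, at 0.0721% (1751 reads) against 0.00354% (172 reads).

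**Figure D4:**
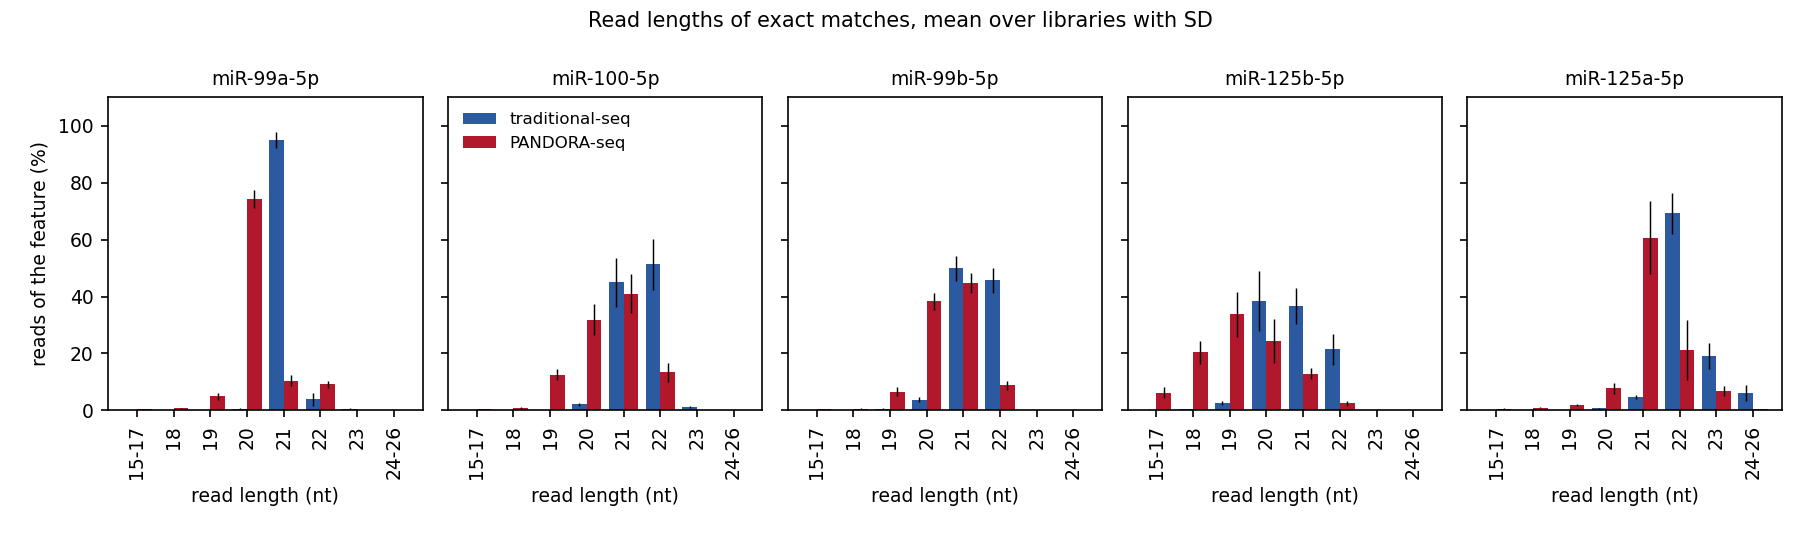
Share of reads at each length (nt) for the main 5p strands, as the mean over traditional-seq (n = 14) and over PANDORA-seq libraries (n = 16), with SD bars. miR-99a-5p peaks at 21 nt in traditional-seq and 20 nt in PANDORA-seq, and miR-125b-5p at 20 and 19 nt.

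Reads that matched a hairpin only after removal of 1 to 3 bases at the 3′ end were counted as tailed, a measure added after the data were seen. An added base cannot be told from a mismatch in the last base. Mean tailed shares were lower in PANDORA-seq than in traditional-seq for each strand tested, and within PANDORA-seq they were lower for the 5p strands than for miR-99b-3p and miR-125b-1-3p. Tailed reads of miR-99a-5p were 28.0% to 43.2% of its reads in traditional-seq and 1.55% to 15.7% in PANDORA-seq, with means of 33.4% and 3.23%. For miR-125b-5p the ranges were 23.03% to 49.5% and 1.46% to 16.6% (means 34.1% and 3.41%). For miR-125b-1-3p they were 52.6% to 75.5% and 12.05% to 18.9% (means 64.6% and 15.2%). The protocols did not overlap for these 3 strands. Outside the family, let-7a-5p did not overlap either (9.59% to 25.2% in traditional-seq and 0.797% to 2.32% in PANDORA-seq), and miR-29a-3p did. Of all 106 features tested, 104 were called lower in PANDORA-seq (98.1%), so a lower tailed share is not particular to the family. The share of all features without overlap in this measure is not given here.

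miR-99b-5p had mean tailed shares of 27.1% and 1.93%, without overlap, miR-125a-5p of 18.7% and 2.47%, miR-99b-3p of 36.6% and 17.8%, and miR-100-5p of 26.4% and 5.08%. The last 3 overlapped: miR-125a-5p ran from 10.9% to 26.8% in traditional-seq and from 1.14% to 14.5% in PANDORA-seq, and miR-99b-3p from 26.3% to 52.4% and from 12.6% to 27.2%. miR-100-5p ran from 21.8% to 36.3% and from 0.895% to 46.3%, with its highest PANDORA-seq library above every traditional-seq library. For miR-125a-5p and miR-100-5p the overlap came from AD PANDORA-seq replicate 1 alone, with the next PANDORA-seq library at 6.48% and 18.1%. Each difference had the smallest p of 100000 resamples (permutation test, adjusted p = 1.05e-05). Over all features 105 of 106 were called (99.1%) and 104 of them were lower in PANDORA-seq (98.1%) and 1 higher (0.943%), with a median difference of -19.1 percentage points. AD PANDORA-seq replicates 1 and 2 were the highest in PANDORA-seq for the 5p strands, at 46.3% and 18.1% for miR-100-5p. Without replicate 1 the PANDORA-seq means were 2.34% for miR-100-5p, 2.40% for miR-99a-5p and 2.54% for miR-125b-5p. Between genotypes 0 of 171 and 0 of 144 features were called (exact permutation tests, with 0 and 8 at an unadjusted p under 0.05).

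The added bases, as counted, differed between members. An added base equal to the next base of the hairpin counts as an exact match. These profiles therefore follow in part from the sequence of each strand. A T or G added to the full mature miR-125b-5p is counted as a read specific to Mir125b-1 or Mir125b-2, not as tailed. Adenosine was the first added base in 65.2% of tailed miR-99a-5p reads and 76.5% of tailed miR-125b-5p reads of traditional-seq, and T in 58.0% of those of miR-99b-5p and 78.9% of those of miR-125b-1-3p. miR-125a-5p had C most often, at 42.3%. The leading tailed reads are given with the added base in capitals.
miR-99a-5p in traditional-seq: aacccgtagatccgatcttgtgA
miR-125b-5p in traditional-seq: tccctgagaccctaacttgtgaA
miR-99b-5p in traditional-seq: cacccgtagaaccgaccttgT
miR-125a-5p in traditional-seq: tccctgagaccctttaacctgC
miR-100-5p in PANDORA-seq: aacccgtagatccgaacttgG
The first made up 15.4% of miR-99a-5p reads, tailed reads included, on average over traditional-seq libraries and 0.448% over PANDORA-seq libraries, and the second 15.6% and 1.14% of miR-125b-5p reads. The last made up 34.1% of miR-100-5p reads in the PANDORA-seq library where it was highest and 0% in the lowest.

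**Figure D5:**
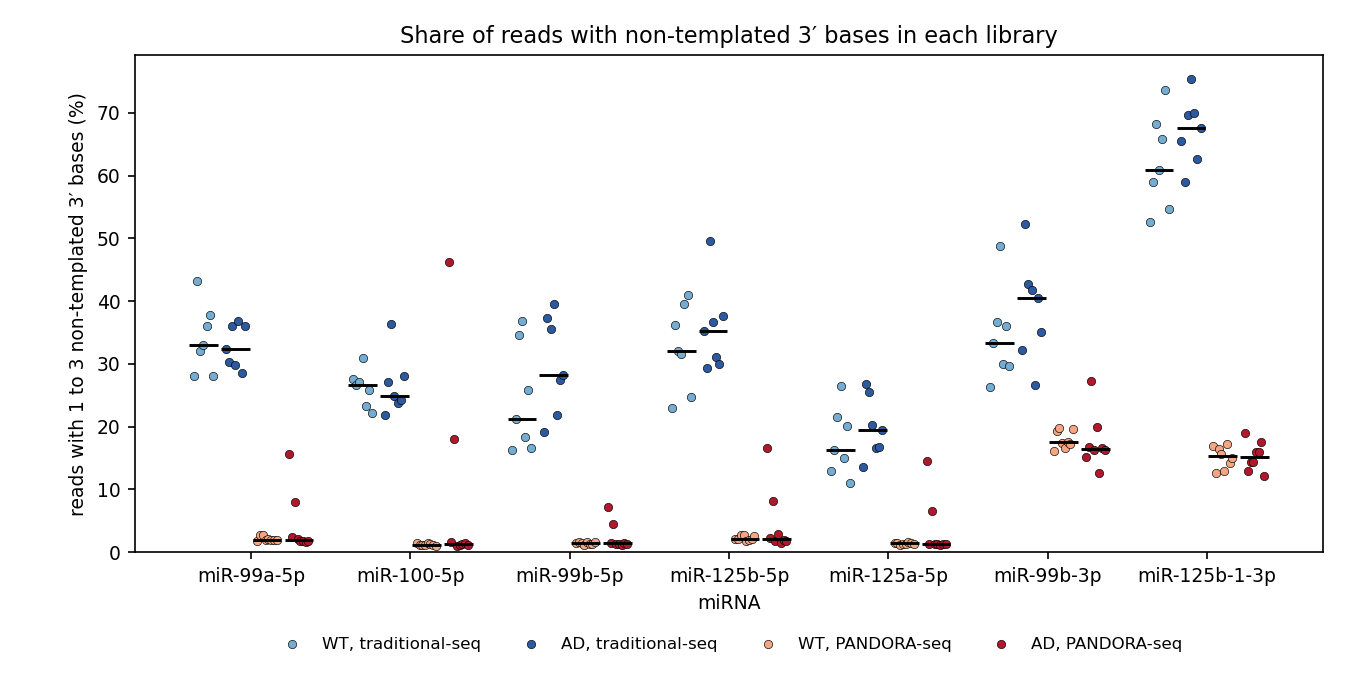
Share (%) of reads with 1 to 3 added 3′ bases for each strand, 1 point per library, by protocol and genotype, with the group medians marked. Traditional-seq libraries of miR-99a-5p lie at 28.0% to 43.2%, and the 2 AD PANDORA-seq libraries that rise above the others for the 5p strands are replicates 1 and 2.

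The Mir125b hairpins can be told apart only by reads that run past the mature 5p strand or by their 3p strands. Reads specific to the 5p arm of Mir125b-1 numbered 9505 in traditional-seq and 769 in PANDORA-seq, 3.30% and 0.0717% of miR-125b-5p reads, those specific to a hairpin included, and those specific to Mir125b-2 numbered 1167 and 638 (0.405% and 0.0595%). In traditional-seq, 90.3% of the former were the 23-nt read that extends the mature strand by a T. This read is templated by Mir125b-1, but a T added to the mature strand of either locus would give it as well. Levels of the Mir125b-1 reads fell by 4.04 on the log2 scale in PANDORA-seq (SE 0.229, edgeR adjusted p = 6.13e-18) and those of Mir125b-2 by 1.21 (SE 0.214, adjusted p = 3.08e-06). Reads specific to a hairpin run past the mature strand, and miR-125b-5p reads were shorter in PANDORA-seq (mean 19.4 against 20.8 nt). These falls are therefore not a measure of either locus, and the part of read length in them was not tested. When each arm took all reads that matched it, the changes became 0.44 and 0.48. Most of those reads are shared by both hairpins, so these values do not tell the loci apart either. Mir125b-2 did not pass a fold of 2 with DESeq2 (-0.86), with DESeq2's size factors in edgeR (-0.84) or with reads of 18 to 26 nt (-0.81).

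Across libraries of 1 protocol, the features whose log2 TMM-scaled CPM followed each member most closely differed between protocols. These correlations are descriptions over libraries that share depth and composition effects. Over 14 traditional-seq libraries miR-99b-5p was closest to the 3p strand of Mir181a-2 (Pearson r = 0.97) and Mir501 (0.957), miR-100-5p to the 3p strands of Mir92-1 (0.9199) and Mir148b (0.883), miR-125b-5p to the 5p strands of Mir484 (0.904) and Mir337 (0.889), miR-125a-5p to Mir212 5p (0.874) and Mir674 3p (0.782), and miR-99a-5p to Mir153 5p (0.790) and Mir434 3p (0.779). Over 16 PANDORA-seq libraries miR-125a-5p was closest to Mir484 5p (0.936) and Mirlet7d 3p (0.931), miR-100-5p to Mir379 3p (0.909) and Mir23b 3p (0.867), miR-99b-5p to Mir30d 5p (0.897) and Mir486 5p (0.883), miR-125b-5p to Mir3475 3p (0.793) and Mir324 3p (0.767), and miR-99a-5p to Mir151 3p (0.752) and Mir330 3p (0.745). No feature was in the closest pair of the same member in both protocols.

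Within the family, the chromosome 17 neighbours miR-99b-5p and miR-125a-5p had r = 0.646 over traditional-seq and 0.786 over PANDORA-seq libraries. miR-99a-5p and miR-100-5p, which differ by a single base and come from different chromosomes, had -0.049 and 0.731. The traditional-seq values of miR-99a-5p include WT replicate 2, where it was far below the other libraries, and values without that library are not given. For the neighbours of the other clusters, miR-99a-5p and miR-125b-5p had 0.355 and 0.0763, and miR-100-5p and miR-125b-5p had -0.0636 and 0.165, with miR-125b-5p reads coming from both loci. miR-99b-5p and miR-100-5p, which are not neighbours, had 0.676 and -0.238, and miR-100-5p and miR-125a-5p had 0.297 and -0.682.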

How the data were processed

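Small RNA of prefrontal cortex (gel-cut at 15 to 50 nt) was sequenced in 30 libraries. The authors removed adapters and deposited, per library, the read count of each distinct sequence with its length. The submitters' processing notes name mm39, and SPORTS1.1 is named in the study's methods, but no alignment was used here. Whole sequences of 15 to 45 nt were matched exactly, sense strand, to GENCODE vM21 hairpins (GRCm38), and raw counts of features were tested with edgeR 4.0.16 (R 4.3.3) by glmQLFTest, after TMM and filterByExpr (minimum count 10, minimum total 15), with Benjamini-Hochberg adjustment over all features. A call needs an adjusted p under 0.05 and a fold over 2. The SE is the log2 fold change divided by the square root of the test's F, and 95% intervals are 1.96 SE on each side.

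Arm shares, read lengths and tailed shares (core of at least 18 nt) were tested by exact permutation (3432 or 12870 splits) between genotypes and with 100000 resamples between protocols, two-sided, for features with at least 200 reads in every library. Alternatives were DESeq2 1.42.0, the likelihood ratio test of the study's methods, other scalings, filters, lengths and assignments, a replicate block, and leaving out each library. Scripts were tested on simulated data. Every family feature was named, with its let-7 neighbours, its seed relatives and the 2 closest features of each main strand. The members and lists were chosen with earlier results of these data known. The labels name no animals, so p-values measure the spread between libraries. Counts carry counting error that PCR copies can exceed, and deeper libraries give more exact shares. Within each group no 2 libraries agreed within sampling noise (smallest chi-square per degree of freedom 133).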

Additional observations from a re-analysis of the deposited data

Results flagged for a closer look

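Of 130 groups of 7 or 8 libraries examined for a value far from the rest (Dixon's test at its 95% level, which flags about 1 in 20 groups by chance), 22 stood out. Values are given without an explanation, with levels in RPM (reads per 1000000 miRNA reads).

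Shares of tailed reads in AD PANDORA-seq replicate 1 were 15.7% for miR-99a-5p (next library 7.97%), 46.3% for miR-100-5p (18.1%), 14.5% for miR-125a-5p (6.48%) and 16.6% for miR-125b-5p (8.11%). In the same library reads specific to the 5p arm of Mir125b-2 were the lowest, 2.78 on the log2 scale or 6.85 RPM (next 14.5), and the 5p share of Mir125b-1 was 96.8% (next 97.97%). Elsewhere in AD PANDORA-seq, the mean length of miR-125b-5p was 19.7 nt in replicate 5 (next 19.5) and the 5p share of Mir125a was 97.9% in replicate 4 (next 98.5%).

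In WT PANDORA-seq replicate 6 the 5p shares were the lowest of the group for Mir125a (96.6%, next 98.7%), Mir125b-1 (95.2%, next 97.7%) and Mir125b-2 (99.5%, next 99.7%). In replicate 7 that of Mir100 was 99.98% (next 99.99%).

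WT traditional-seq replicate 2 had the lowest miR-99a-5p level, 10.09 on the log2 scale or 1087 RPM (next 14952), the longest miR-99a-5p reads (21.12 nt, next 21.04), the lowest Mir99a 5p share (99.9%, next 99.997%) and the highest miR-125b-1-3p level (7.20 on the log2 scale or 147 RPM, next 105.4). In replicate 1, miR-100-5p was at 11.61 on the log2 scale or 3129.9 RPM (next 6290.4), and in replicate 4 the mean length of miR-99b-3p was 21.7 nt (next 21.97).

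In AD traditional-seq, miR-99b-3p was at 5.96 on the log2 scale or 62.3 RPM in replicate 2 (next 164), reads specific to Mir125b-2 5p were at 3.09 on the log2 scale or 8.50 in replicate 5 (next 16.2), tailed reads of miR-125b-5p were 49.5% in replicate 3 (next 37.6%), and those of the Mir125b-1-specific 5p reads were 8.10% in replicate 2 (next 3.85%).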

How the results depend on the processing

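The count of calls between AD and WT mice in PANDORA-seq, 1 feature, became 0 with scaling by all reads of the library, a loose filter, reads of 18 to 26 nt, each arm taking all matching reads, or a replicate block, 4 with the likelihood ratio test and 3 with DESeq2, and 0 to 2 when a library was left out (0 without AD replicate 2 or 8, 2 without WT replicate 8 or AD replicate 5). The protocol count of 796 became 1760 with the loose filter (10 reads or more in all) and 515 with the stricter filter (10 reads or more in each library of any group), and 782 to 838 when a library was left out. Of 447 values of single features under other settings, 400 kept their direction and side of the threshold, 32 reversed, 9 lost and 6 gained a call, and of 713 when a library was left out 606 kept both, 47 reversed, 36 lost and 24 gained a call. The cause was not tested.

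Reversed genotype changes (log2, AD against WT) were all of features with no call. In traditional-seq miR-99b-3p became -0.035 with scaling by all reads and -0.0034 with the stricter filter, and miR-99a-5p -0.015 with DESeq2 and with its size factors, -0.016 with the stricter filter and -0.041 with tailed reads. In PANDORA-seq miR-100-5p became 0.0707 with scaling by all reads, 0.015 with the stricter filter and 0.056 with tailed reads. With reads of 18 to 26 nt, miR-125b-1-3p became -0.016, miR-125b-2-3p -0.0304, Mir125b-2 5p reads -0.064 and miR-99b-3p -0.014. With tailed reads, miR-125b-1-3p became -0.000948, miR-125b-2-3p -0.0504 and miR-99b-3p -0.034, which was -0.0012 with each arm taking all matching reads. The interaction of miR-99a-5p became -0.038 with scaling by all reads.

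Reversed protocol changes were, with scaling by all reads, miR-125a-5p -1.31, miR-125b-1-3p -1.39, miR-125b-5p -1.09 and miR-99a-3p -1.20. With each arm taking all reads they were Mir125b-1 5p 0.44 and Mir125b-2 5p 0.48, and with tailed reads miR-125b-1-3p -0.16. With tailed reads miR-125b-5p stood at 0.99, under a fold of 2. As log2 ratios of the arms, the genotype differences of Mir125a and Mir99a in PANDORA-seq were -0.11 and -0.079 and the protocol difference of Mir100 -0.78. With tailed reads, genotype differences in mean length became -0.0018 nt for Mir125b-1 5p and 0.024 nt for miR-125b-5p in traditional-seq and -0.0021 nt for miR-99b-5p in PANDORA-seq.

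When a library was left out, genotype changes that crossed 0 ranged in traditional-seq from -0.29 to 0.26 for miR-99a-5p, -0.10 to 0.18 for miR-99b-3p, -0.081 to 0.36 for miR-125a-5p, -0.041 to 0.13 for miR-125b-5p and -0.23 to 0.00095 for miR-125b-2-3p. In PANDORA-seq they ranged from -0.33 to 0.14 for miR-100-5p, -0.25 to 0.10 for miR-99a-5p, -0.048 to 0.23 for miR-99b-3p, -0.065 to 0.19 for miR-125b-1-3p, -0.096 to 0.20 for miR-125b-2-3p, -0.073 to 0.11 for Mir125b-2 5p reads and -0.033 to 0.32 for Mir125b-1 5p reads.

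Replicate numbers did not pair the libraries: deviations of same-numbered WT and AD libraries correlated at -0.43 to 0.41 in traditional-seq and -0.51 to 0.43 in PANDORA-seq, and libraries that share a code in their names between protocols at -0.12 to 0.24. With the replicate block 0 features were called between genotypes in traditional-seq, 0 in PANDORA-seq and 794 between protocols, and miR-99a-5p in PANDORA-seq became 0.059. With the shared code as a block, 776 features were called. Depth limits the 3p strands of Mir99a and Mir100 most, with 46 and 55 reads in all of traditional-seq.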
